A study of Mus musculus with 6 samples.

Results

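The 10 genes described here encode the hypoxia-inducible factor (HIF) subunits Hif1a, Epas1 and Arnt, the prolyl hydroxylases Egln1, Egln2 and Egln3, the ubiquitin ligase subunit Vhl, and the hypoxia targets Bnip3, Vegfa and Ankrd37. They were taken by symbol from the 54532 genes of the deposited expression files, and all 10 were found. Levels were compared between 3 wild-type (WT) libraries and 3 libraries labelled as lacking 4-1BBL, a ligand of the TNF family encoded by Tnfsf9. Both groups were bone marrow-derived macrophages from WT or 4-1BBL-deficient mice, made into growing lines by retroviral v-raf and v-myc, kept in high-glucose medium and given IL-4, a cytokine of alternative macrophage activation, at 10 ng/ml for 24 hours. The labels do not give the age or sex of the mice, the allele removed, the oxygen level of the cultures or whether replicate libraries stem from different cultures or mice. Each p-value therefore rests on the spread among replicate libraries alone, and that spread may be technical. As every library had received IL-4, a value is a level after IL-4 rather than a response to it.

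HIF is a pair of a regulated alpha subunit, HIF-1alpha from Hif1a or HIF-2alpha from Epas1, and the constant partner ARNT. With oxygen present the EGLN enzymes hydroxylate prolines of the alpha subunit, the VHL protein binds the hydroxylated form, and the subunit is degraded. When oxygen is short, or when macrophages are activated, the alpha subunit accumulates and raises genes of glucose metabolism, vessel growth and mitochondrial turnover. Because this control acts on protein, transcript levels do not measure HIF activity.

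The unit throughout is FPKM, fragments per kilobase of exon, scaled to the assigned fragments of the library. It is a level per length, so levels can be set side by side between genes. Between 20.7 and 22.3 M (mega) fragments were recovered for each WT library, and between 19.1 and 26.4 M for each KO-labelled one. Tnfsf9 itself had 12.3 ± 2.10 FPKM in the WT group against 10.9 ± 0.414 FPKM in the other (SD, n = 3), with overlapping groups and a limma adjusted p of 0.273. The Tnfsf9 level thus does not show the loss that the label names. As a transcript can persist outside a deleted part, a level cannot tell an altered gene from an intact one. The second group is named KO-labelled throughout. Macrophage markers had at least 1 FPKM for 8 of 10 genes in WT and 10 of 10 in KO-labelled libraries, with sums of 2017 to 2057 and 1345 to 1388 FPKM, Aif1 and Mertk being the 2 under 1 FPKM in WT. Lyz2, Cd68 and Csf1r, the largest parts of the WT sums, were lower in the limma test. Adgre1, Aif1, Fcgr1, Mertk and Ptprc were higher (Adgre1 from 11.8 to 268 FPKM), and Itgam and Spi1 did not pass. In KO-labelled libraries the mean of Adgre1 was near that of Cd68 (275 FPKM) and above that of Csf1r (134 FPKM). Aif1 and Mertk reached the mean of 1 FPKM needed for testing only through the KO-labelled libraries. They therefore had to differ, and no support is drawn from them. Osteoclast markers had 4 of 6 and 2 of 6 genes at that level, with sums of 127 to 138 and 82.4 to 85.5 FPKM. The mean of Acp5 went from 50.8 to 2.79 FPKM, of Mmp9 from 4.60 to 0.524 and of Dcstamp from 6.75 to 0.0901. Ctsk, the highest of the list in both groups, went the other way, from 69.5 to 80.5 FPKM. Calcr and Oscar, under 1 FPKM in WT, were at 0 in every KO-labelled library. Endothelial markers had 1 and 2 of 6 genes at 1 FPKM or more, with sums of 1.87 to 2.02 and 2.75 to 3.40 FPKM. Pecam1 had a mean of 1.87 FPKM in both groups. Vwf, too low over all 6 libraries to be tested, went from 0.0393 to 1.16 FPKM, and Tek and Emcn were at 0 throughout. Among erythroid and megakaryocyte markers Pf4, at 0 in WT, gave most of a sum of 15.5 to 17.5 FPKM in KO-labelled libraries. No gene of the stromal, granulocyte, dendritic cell, lymphocyte or mast cell lists reached a mean of 1 FPKM in either group, and of single libraries only KO-labelled replicate 2 exceeded it, with S100a8 at 1.24 FPKM. The Y-linked gene Ddx3y was at 9.92 to 12.1 FPKM in KO-labelled libraries, with 1 fragment over the WT libraries. Eif2s3y, also Y-linked, was at 9.70 to 10.9 FPKM in KO-labelled libraries and at 0 in WT. The part of these differences in the results below was not tested. The Y-linked genes divide the libraries exactly as the labels do. The label therefore cannot be told apart from the sex of the donor mice or other differences between the cells of the groups. In such bulk samples fewer cells of a type and less RNA per cell cannot be told apart either.

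For the hypoxia targets and the hydroxylase gene Egln3, 4 HIF-responsive members in all, the 250 bases upstream of the RefSeq start are shown. They are printed 5′ to 3′ on the strand of the gene, from GRCm38.p6. Capitals mark the HIF core motifs ACGTG and GCGTG, searched on both strands, where overlapping matches run together. The windows are chr12:54203875-54204124, chr8:45999851-46000100, chr7:138909507-138909756 and chr17:46032378-46032627, all on the minus strand.
Egln3: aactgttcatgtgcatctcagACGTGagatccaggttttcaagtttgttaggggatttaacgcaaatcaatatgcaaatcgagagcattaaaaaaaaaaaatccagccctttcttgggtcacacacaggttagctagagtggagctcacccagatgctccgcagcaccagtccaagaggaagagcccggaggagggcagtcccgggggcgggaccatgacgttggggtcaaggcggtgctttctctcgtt
Ankrd37: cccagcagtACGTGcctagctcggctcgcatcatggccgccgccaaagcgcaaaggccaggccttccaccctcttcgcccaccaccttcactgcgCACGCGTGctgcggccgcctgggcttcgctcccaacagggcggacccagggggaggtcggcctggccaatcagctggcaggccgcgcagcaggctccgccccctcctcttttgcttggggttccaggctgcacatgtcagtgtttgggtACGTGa
Bnip3: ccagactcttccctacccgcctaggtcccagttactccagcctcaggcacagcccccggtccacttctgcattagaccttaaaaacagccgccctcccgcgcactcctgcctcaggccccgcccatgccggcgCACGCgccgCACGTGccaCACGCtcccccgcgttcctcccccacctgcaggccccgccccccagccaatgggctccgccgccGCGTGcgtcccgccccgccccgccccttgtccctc
Vegfa: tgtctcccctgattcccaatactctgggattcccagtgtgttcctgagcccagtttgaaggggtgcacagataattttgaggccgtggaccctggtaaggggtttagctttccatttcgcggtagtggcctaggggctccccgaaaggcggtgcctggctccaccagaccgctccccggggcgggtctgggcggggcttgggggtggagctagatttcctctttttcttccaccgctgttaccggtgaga

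Egln3 held 1 core motif at positions -229 to -225 from the start. Ankrd37 held 4, the nearest at positions -6 to -2, and Bnip3 held 5, of which 2 lie on opposite strands of 1 shared CACGTG. The window of Vegfa held neither motif, which says only that these letters are absent from these 250 bases. Of the 9 members with a RefSeq window, 7 held a core motif, Vegfa and Vhl held none, and Epas1 was not matched. Of 32851 windows of that length across the genome, 38.6% held either motif, 16.6% ACGTG and 28.2% GCGTG. The RefSeq start of Hif1a lies 6492 bases, and that of Ankrd37 5857 bases, inside the gene as GENCODE draws it.

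The regulators and the targets both parted into higher and lower genes in KO-labelled cells. Hif1a fell 2.38-fold while Epas1, nearly silent in WT, reached 7.17 FPKM. Egln3 went from under 0.2 FPKM to 44.6 FPKM, Egln1 rose 1.70-fold and Vhl 1.20-fold. Among the targets Vegfa fell 5.26-fold and Bnip3 1.42-fold, whereas Ankrd37 rose 4.48-fold. Of the 10 genes 5 were higher, 4 lower and 1, Egln2, did not pass a limma adjusted p of 0.05 (Benjamini-Hochberg over all 10843 genes tested). Of all genes tested, 60.8% passed, 30.6% higher and 30.2% lower, so calls in either direction are common in this comparison. The median log2 fold change of the 10 genes was 0.21, against 0.01 for all genes tested. After rescaling to TPM, 6 were higher and 3 lower, while the shares of all genes tested moved the same way, to 36.6% higher and 24.4% lower. WT and KO-labelled levels were fully apart for 9 of the 10 genes, and for 67.4% of all genes tested. All 10 passed the limit of a mean of at least 1 FPKM, but Epas1 and Egln3 passed it only through the KO-labelled libraries and so had to differ. Both are among the 5 higher genes. Their calls and p-values are given as description, and no support is drawn from them.

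**Figure D1:**
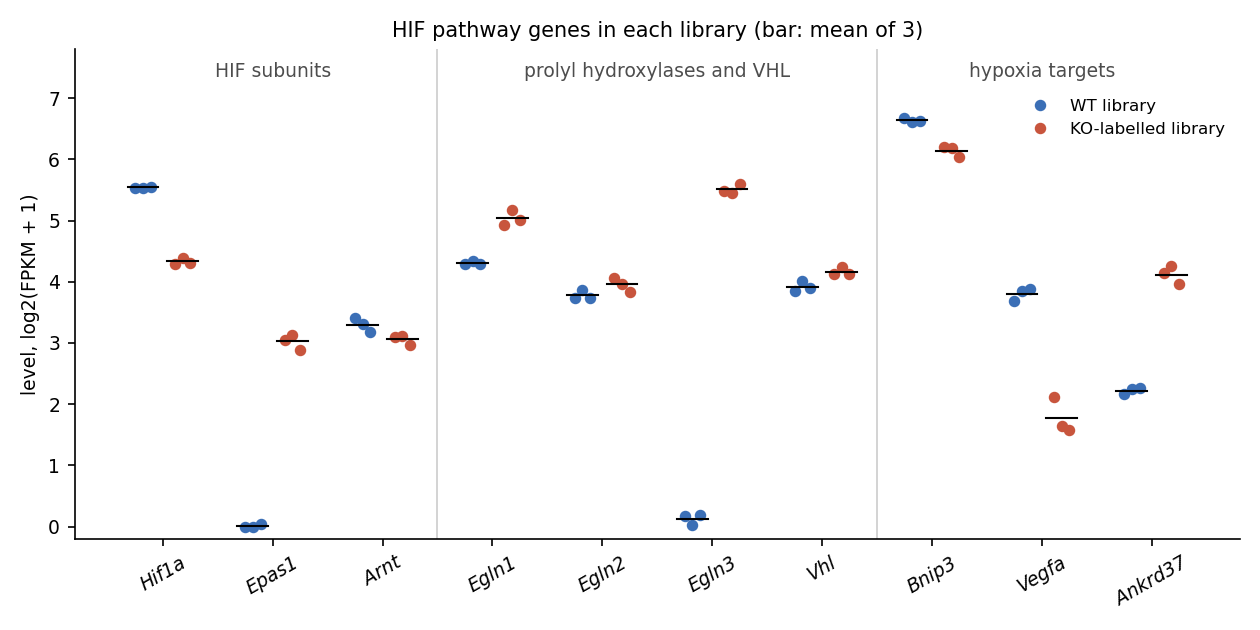
Level of each gene in every library, as log2(FPKM + 1) on the vertical axis, for 3 WT and 3 KO-labelled libraries, with a bar at the mean of each group. Hif1a, Vegfa and Bnip3 sit lower and Epas1, Egln1, Egln3 and Ankrd37 higher in all KO-labelled libraries, and Egln2 overlaps between the groups.

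Hif1a (ENSMUSG00000021109), on chromosome 12 at 73901375 to 73947530 in mm10, encodes the alpha subunit HIF-1alpha. The WT replicates, in order of number, had 45.4, 45.3 and 46.0 FPKM, against 18.7, 20.04 and 18.8 FPKM in the KO-labelled ones. The WT libraries lay within 1 FPKM of each other and far above every KO-labelled library. On the log2(FPKM + 1) scale Hif1a changed by -1.21 ± 0.05 (SE; 95% interval -1.32 to -1.10), at a limma adjusted p of 1.04e-06. A stretch of 5.60% of its exon length overlaps the antisense gene Gm15283, whose mean level was 0.008 FPKM.

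Epas1 (ENSMUSG00000024140), on chromosome 17 at 86753700 to 86833410, encodes HIF-2alpha, the alpha subunit with a more restricted tissue range. It was at 0, 0 and 0.0254 FPKM in the WT replicates and at 7.31, 7.79 and 6.41 FPKM in the KO-labelled ones. The groups are therefore at or near 0 fragments against a moderate level in every library, with 3 fragments over the WT group and 2489 over the KO-labelled group. Corrected for depth the ratio of fragments was 819-fold, with an exact 95% counting interval from 280-fold to 3974-fold. On that log2(FPKM + 1) scale the change was 3.01 ± 0.09 (SE; limma adjusted p = 4.53e-07), a scale that understates changes from near 0. In a voom fit of the recovered fragments the log2 fold change was 9.72.

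Arnt (ENSMUSG00000015522), on chromosome 3 at 95434388 to 95497240, encodes the shared partner of both alpha subunits. It was at 9.62, 8.87 and 8.06 FPKM in the WT replicates and at 7.6005, 7.69 and 6.78 FPKM in the KO-labelled ones. The lowest WT library lay just above the highest KO-labelled library. Its log2 fold change was -0.24 ± 0.08 (SE; limma adjusted p = 0.0366). This call was lost without any single library other than WT replicate 3 (adjusted p of 0.0556 to 0.115), without a filter (0.0674) and after rescaling to TPM (0.144).

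Summed, Hif1a and Epas1 had 45.6 ± 0.403 FPKM in the WT group against 26.3 ± 1.36 FPKM in the KO-labelled group (SD, n = 3). Epas1 made up at most 0.0551% of that sum in a WT library and 25.4% to 28.2% in the KO-labelled libraries. Hif1a remained the more abundant alpha transcript in all 6 libraries.

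**Figure D2:**
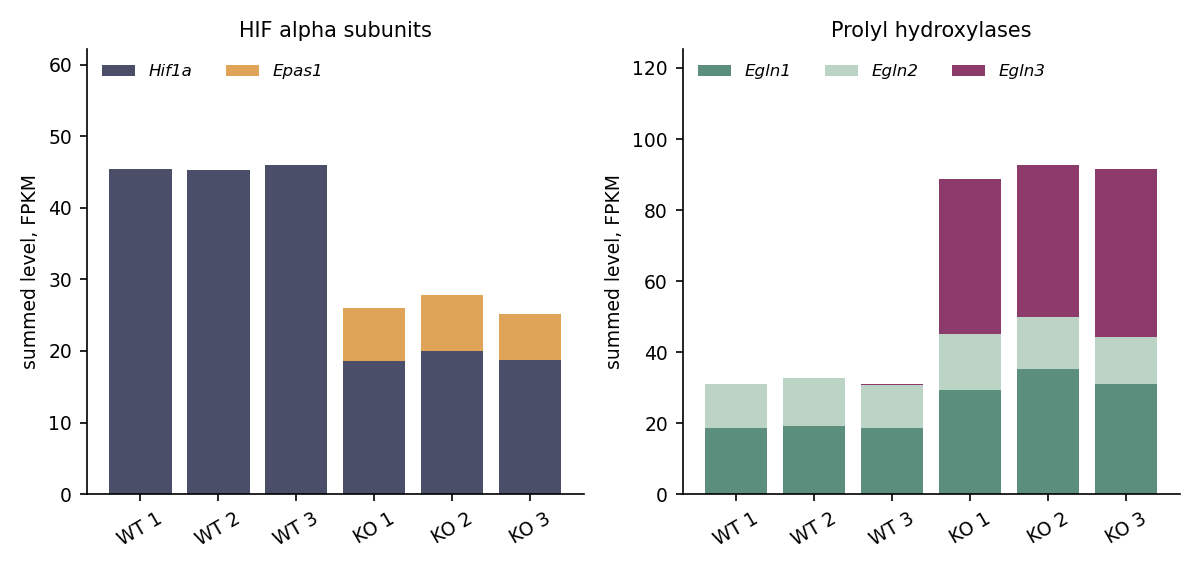
Summed FPKM on the vertical axis for the alpha subunits (left) and the prolyl hydroxylases (right), stacked by gene, in each library. Epas1 and Egln3 are visible only in the KO-labelled bars, apart from a trace of Egln3 in WT, while the alpha subunit sum is lower and the hydroxylase sum higher there.

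Egln3 (ENSMUSG00000035105), on chromosome 12 at 54178981 to 54203860, encodes the prolyl hydroxylase PHD3, which is itself a classic HIF target. It was at 0.123, 0.0181 and 0.135 FPKM in the WT replicates and at 43.6, 42.9 and 47.3 FPKM in the KO-labelled ones. In WT it was among the least expressed of the 10 genes, and in KO-labelled libraries only Bnip3 had a higher level. The fragments numbered 16 over the WT group and 7718 over the KO-labelled group, a depth-corrected ratio of 476-fold with an exact 95% counting interval from 293-fold to 833-fold. The log2 fold change on the log2(FPKM + 1) scale was 5.38 ± 0.07 (SE; limma adjusted p = 1.06e-08). Egln3 entered the test only through the KO-labelled libraries, so this p is not support.

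Egln1 (ENSMUSG00000031987), on chromosome 8 at 124908587 to 124949324, encodes PHD2, the hydroxylase regarded as the main oxygen sensor of the pathway. Its level was 18.6, 19.3 and 18.5 FPKM in the WT replicates and 29.4, 35.3 and 31.1 FPKM in the KO-labelled ones. Every KO-labelled library was above every WT library, with a log2 fold change of 0.73 ± 0.07 (SE; limma adjusted p = 0.000112).

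Egln2 (ENSMUSG00000058709), on chromosome 7 at 27158658 to 27166802, encodes PHD1. Its level was 12.4, 13.5 and 12.4 FPKM in the WT replicates and 15.8, 14.6 and 13.3 FPKM in the KO-labelled ones. KO-labelled replicate 3 lay within the WT range, and the log2 fold change of 0.18 ± 0.07 (SE) did not pass (limma adjusted p = 0.0762, 95% interval 0.0005 to 0.35). Without that library the adjusted p was 0.0225, and after rescaling to TPM it was 0.0122.

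Vhl (ENSMUSG00000033933), on chromosome 6 at 113623959 to 113631633, encodes the subunit that recognises hydroxylated HIF alpha. It was at 13.4, 15.2 and 13.9 FPKM in the WT replicates and at 16.4, 18.01 and 16.4 FPKM in the KO-labelled ones. The groups did not overlap, with a log2 fold change of 0.24 ± 0.07 (SE; limma adjusted p = 0.0154). The adjusted p was 0.0541 without WT replicate 1, 0.0508 without WT replicate 3 and 0.0538 without KO-labelled replicate 2.

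The 3 hydroxylases added up to 31.6 ± 1.04 FPKM in the WT group against 91.1 ± 2.06 FPKM in the KO-labelled group (SD, n = 3). In WT the sum was 59.4% Egln1, 40.3% Egln2 and 0.296% Egln3. In KO-labelled libraries it was 35.03% Egln1, 16.01% Egln2 and 49.0% Egln3, so Egln3 went from a trace to the largest of the 3 hydroxylase transcripts.

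**Figure D3:**
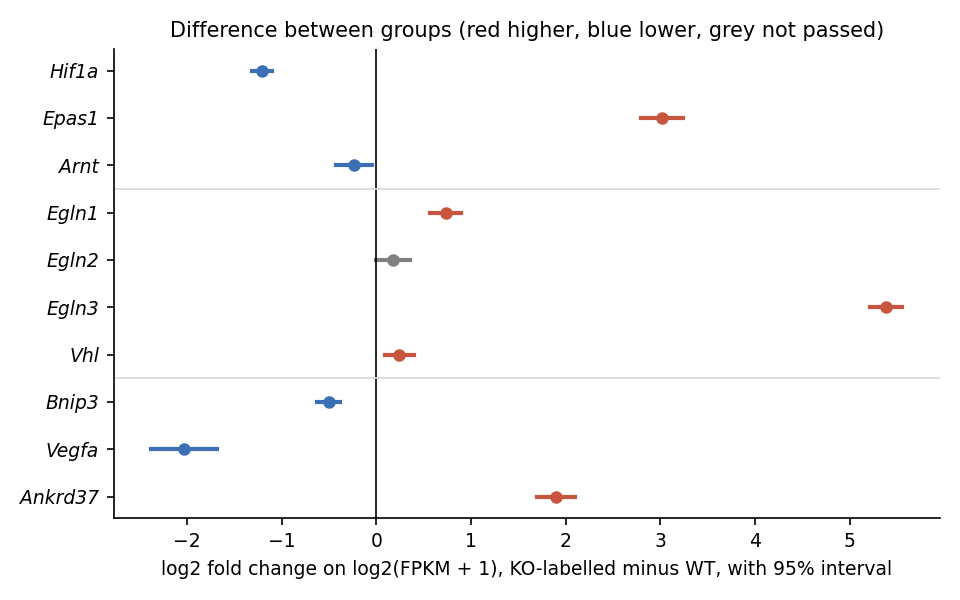
Log2 fold change on the log2(FPKM + 1) scale, KO-labelled minus WT, with its 95% interval, for the 10 genes in the order of their roles. Egln3 and Epas1 lie farthest to the right and Vegfa farthest to the left, and the interval of Egln2 starts just above 0 although its adjusted p did not pass.

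Vegfa (ENSMUSG00000023951), on chromosome 17 at 46016993 to 46032369, encodes the vascular growth factor that is a standard readout of HIF activity. Its level was 11.9, 13.4 and 13.8 FPKM in the WT replicates and 3.32, 2.12 and 1.98 FPKM in the KO-labelled ones. All KO-labelled libraries were far below WT, with KO-labelled replicate 1 the highest of its group. The log2 fold change on the log2(FPKM + 1) scale was -2.03 ± 0.15 (SE; limma adjusted p = 2.52e-05).

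Bnip3 (ENSMUSG00000078566), on chromosome 7 at 138890836 to 138909519, encodes a mitochondrial outer membrane protein of mitophagy. It had the highest level of the 10 genes in both groups, 101, 97.3 and 98.3 FPKM in the WT replicates and 72.3, 71.7 and 65.0 FPKM in the KO-labelled ones. The groups did not overlap, with a log2 fold change of -0.50 ± 0.05 (SE; limma adjusted p = 0.000165). Bnip3 has 3 near-identical copies in the annotation, Gm16439, Gm6532 and Gm9419, none above 0.363 FPKM in any library, and the sources do not say how fragments were divided among them. The antisense gene Gm45507, which overlaps 22.3% of its exon length, had no fragments.

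Ankrd37 (ENSMUSG00000050914), on chromosome 8 at 45996902 to 46005707, encodes a small ankyrin repeat protein that is induced by HIF-1. Its level was 3.47, 3.73 and 3.79 FPKM in the WT replicates and 16.7, 18.1 and 14.5 FPKM in the KO-labelled ones. Every KO-labelled library was well above WT, opposite in direction to Vegfa and Bnip3. The log2 fold change was 1.90 ± 0.08 (SE; limma adjusted p = 2.39e-06). Its exons overlap Lrp2bp on the other strand over 22.7% of their length and Ufsp2 over 3.70%, genes with mean levels of 0.098 and 16.9 FPKM, and reads of the 2 strands may not have been separated.

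The order of levels also changed. In WT it was Bnip3, Hif1a, Egln1, Vhl, Vegfa, Egln2, Arnt, Ankrd37, Egln3 and Epas1, where the library ranges of Vhl and Vegfa, of Vegfa and Egln2, and of Egln3 and Epas1 overlapped. In KO-labelled cells it was Bnip3, Egln3, Egln1, Hif1a, Vhl, Ankrd37, Egln2, Arnt, Epas1 and Vegfa, where those of Vhl and Ankrd37, of Ankrd37 and Egln2, and of Arnt and Epas1 overlapped. Hif1a thus moved from above all 3 hydroxylases to below Egln1 and Egln3 in every KO-labelled library.

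Each gene was also set against Hif1a within its library. Because Hif1a itself fell 2.38-fold, the ratio of a gene with an unchanged level would rise by that factor. In KO-labelled libraries the ratio was 1.98-fold higher for Arnt and 1.67-fold higher for Bnip3, less than that factor, as both genes fell themselves but by less than Hif1a. It was 2.71-fold higher for Egln2, 2.85-fold for Vhl, 4.03-fold for Egln1 and 10.6-fold for Ankrd37. Egln1 was at 0.402 to 0.425 of the Hif1a level in WT and at 1.58 to 1.76 in KO-labelled libraries, and Vhl was at 0.295 to 0.335 and 0.873 to 0.899. Egln2 was at 0.269 to 0.299 and 0.707 to 0.847, and Arnt at 0.175 to 0.212 and 0.361 to 0.408. Egln3 went from at most 0.00293 of the Hif1a level to between 2.14 and 2.52. Of the targets, Bnip3 went from 2.14 to 2.24 times the Hif1a level up to 3.46 to 3.88 times, and Ankrd37 from 0.0765 to 0.0825 up to 0.774 to 0.901. Vegfa had the only one of the 8 ratios that was lower, from 0.262 to 0.299 down to 0.105 to 0.178. None of the 8 ratios overlapped between the groups. For each of them the exact two-sided permutation p was 0.1, and 0.1 after Benjamini-Hochberg adjustment over the 8, which is the smallest p that 3 against 3 libraries allow. This p compares a ratio between the groups and does not show that the gene itself changed. All 8 share the Hif1a value of each library, and Epas1 gives no ratio because it was listed at 0 in 2 libraries.

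**Figure D4:**
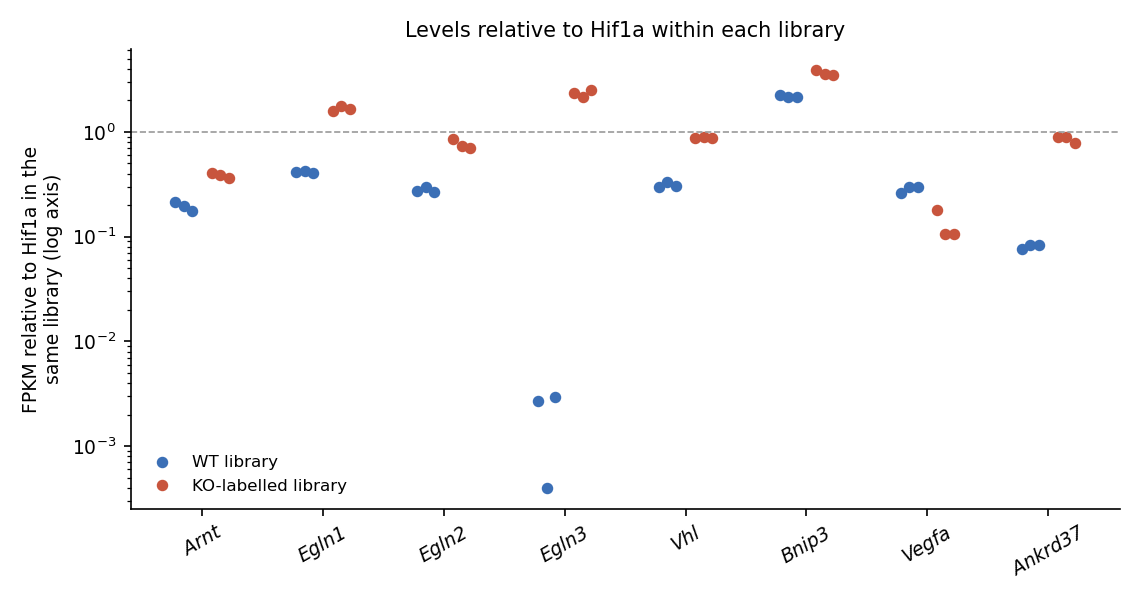
FPKM of each gene divided by the FPKM of Hif1a in the same library, on a log axis, with a dashed line at 1. Egln1 and Egln3 cross the line between WT and KO-labelled libraries, and Vegfa is the only gene whose KO-labelled points lie below its WT points.

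Other regulators of the pathway were read from a list of 17 genes, 14 of which were tested. Of these 5 were higher (35.7%, against 30.6% of all genes tested), 3 were lower (21.4% against 30.2%) and 6 missed the threshold, so the share called is near the background. Their median log2 fold change was 0.03 against 0.01 over all genes tested, and after rescaling to TPM 5 were higher and 1 lower, against 36.6% and 24.4% of all genes tested. Cited2, which competes with HIF alpha for the coactivators p300 and CBP and is itself HIF-responsive, fell from 298 ± 3.43 to 52.5 ± 6.84 FPKM (SD, n = 3; log2 fold change -2.49). The coactivator genes rose, Ep300 (p300) from 7.73 ± 0.168 to 12.9 ± 0.386 FPKM and Crebbp (CBP) from 2.93 ± 0.159 to 5.46 ± 0.429 FPKM, although Crebbp has a near-identical copy in the annotation. Hif1an, the asparagine hydroxylase that blocks coactivator binding to HIF alpha, rose from 5.54 ± 0.0976 to 7.65 ± 0.633 FPKM. Eloc, the elongin that joins VHL to its ligase, rose from 19.2 ± 1.31 to 25.8 ± 0.917 FPKM. These 5 genes had limma adjusted p of at most 0.00203. The other elongin gene Elob was at 83.0 ± 1.13 and 82.3 ± 10.95 FPKM, with 3 near-identical copies, and did not pass, nor did Os9 (31.0 ± 1.76 and 32.01 ± 1.43 FPKM) or the ligase gene Siah2 (9.79 ± 0.774 and 8.57 ± 1.22 FPKM). Hif3a, Arnt2 and P4htm were below the level for testing. Their fragments were 29, 0 and 16 in WT and 372, 303 and 8 in KO-labelled libraries.

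HIF targets outside glycolysis were called in both directions, as were genes in general. Of 37 listed genes 28 were tested, 13 higher (46.4%, against 30.6% of all genes tested), 9 lower (32.1% against 30.2%) and 6 not passing. Their median log2 fold change was 0.04, against 0.01 over all genes tested. Plod2, Trf, Rora and Lox, below the level for testing, had 0, 3, 7 and 4 fragments in WT against 624, 171, 204 and 505 in KO-labelled libraries. P4ha2, Edn1, Epo, Vldlr and Loxl2, also below it, overlapped between the groups. Without a filter 17 of the 37 were higher (45.9%) and 9 lower (24.3%), against 18.7% and 16.8% of all genes. Flt1, the gene of VEGF receptor 1, rose from 1.06 ± 0.0330 to 42.8 ± 1.24 FPKM (log2 fold change 4.41), while its ligand gene Vegfa fell. The zinc finger gene Zfp395 rose from 0.0132 ± 0.0228 FPKM (4 fragments in WT) to 8.37 ± 0.856 FPKM and so passed the limit only through the KO-labelled libraries, and the GTPase gene Rab20 rose from 2.36 ± 1.15 to 6.65 ± 0.714 FPKM. The repressor gene Bhlhe41 fell from 6.19 ± 0.287 to 0.885 ± 0.174 FPKM, and it passed the limit only through the WT libraries. As genes that pass through 1 group had to differ, no support is drawn from Zfp395 and Bhlhe41. The limma adjusted p was 7.03e-09 for Flt1 and 0.00258 for Rab20. Ddit4 (19.7 ± 2.17 and 18.9 ± 1.34 FPKM), Jmjd6 (16.6 ± 0.425 and 16.0 ± 0.851 FPKM) and Adm (11.5 ± 0.415 and 10.2 ± 1.83 FPKM), 3 genes that often rise in hypoxia, did not pass.

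HIF targets of glucose metabolism leaned lower. All 22 were tested, with 5 higher (22.7%, against 30.6% of all genes tested), 14 lower (63.6% against 30.2%) and 3 not passing. The median log2 fold change was -0.49, against 0.01 over all genes tested. After rescaling to TPM 7 were higher (31.8%) and 14 lower (63.6%), against 36.6% and 24.4% of all genes tested. Beside Slc16a3, the lactate exporter (94.4 ± 3.23 and 2.53 ± 0.154 FPKM), and Hk1, a hexokinase (36.8 ± 1.90 and 9.73 ± 0.537 FPKM), the largest changes were in Pkm, Aldoa and Pdk1. The pyruvate kinase gene Pkm fell from 1292 ± 16.8 to 672 ± 32.8 FPKM and the aldolase gene Aldoa from 1026 ± 32.5 to 596 ± 41.1 FPKM, where Pkm has a near-identical copy. Pdk1, whose product holds pyruvate out of the mitochondrial cycle, rose from 22.3 ± 0.305 to 39.2 ± 0.659 FPKM, opposite to most of the list. These 5 genes had limma adjusted p of at most 3.05e-05. Eno1 (500 ± 5.29 and 522 ± 17.4 FPKM) and Aldoc (33.05 ± 1.74 and 34.1 ± 0.872 FPKM) did not pass, although both passed as higher after rescaling to TPM (adjusted p of 0.0114 and 0.0427). Gapdh, with 101 near-identical copies, ranged from 5.59 to 80.3 FPKM among WT libraries, did not pass, and its value is uncertain. Without the 8 genes that have such a copy, 5 of 14 were higher (35.7%) and 8 lower (57.1%), with a median of -0.43. The shares of all genes tested were the 30.6% and 30.2% given above.

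**Figure D5:**
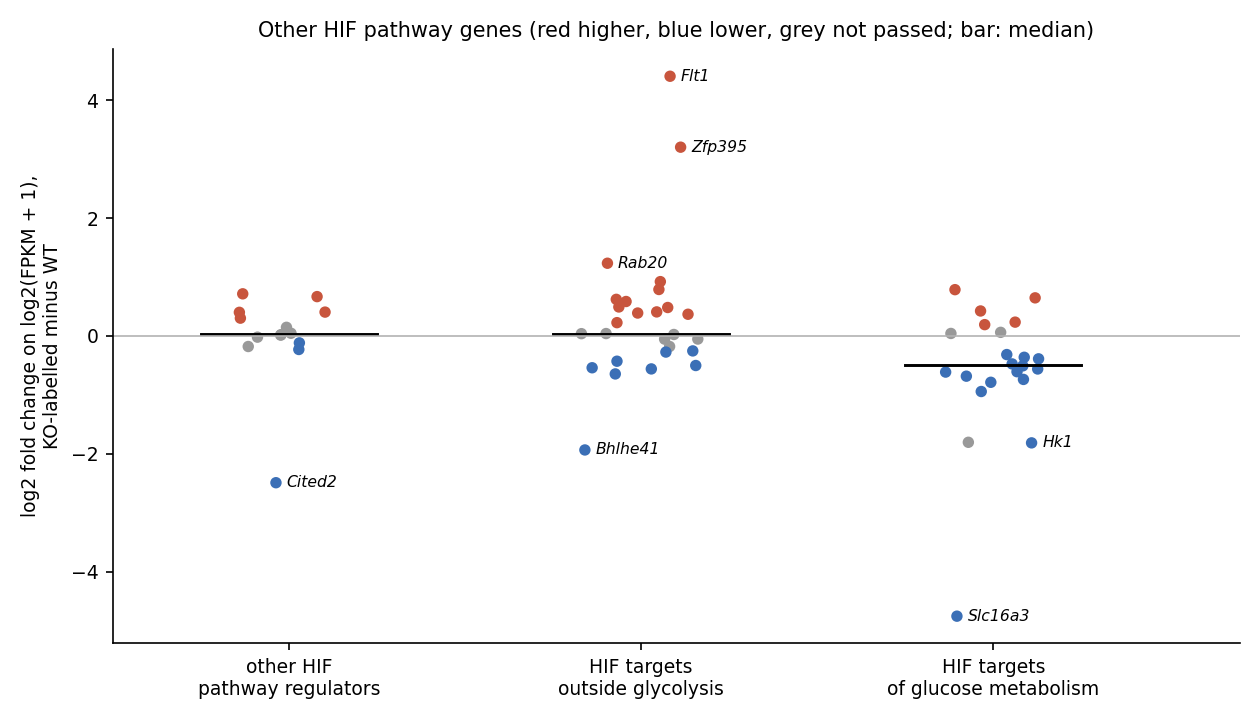
Log2 fold change on the log2(FPKM + 1) scale, KO-labelled minus WT, for the tested genes of 3 lists, with the median of each list as a bar. In the second list 1 gene counted in the median is not drawn. The medians of the first 2 lists lie near 0 with genes on both sides, and that of the glucose metabolism list lies at -0.49. Points are shifted sideways at random for legibility, and the lone grey point low in the third list is Gapdh.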

How the data were processed

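Per the submitters' processing notes, the tools were featureCounts 1.5.0-p3 and HISAT2 2.0.5, with mm10 as the build, and the authors deposited FPKM values, 1 file per library. Which annotation was counted, on which strand, and how multi-mapping reads were handled is not given in the sources. Library preparation is described with either a directional or a non-directional option. Symbols and positions came from GENCODE M21 (54495 of 54532 identifiers matched), and promoter sequences from RefSeq.

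From the deposited values, log2(FPKM + 1) was compared between KO-labelled and WT libraries by limma 3.58.1 (R 4.3.3, with trend) in genes averaging 1 FPKM or more over all 6 libraries, with Benjamini-Hochberg adjustment over 10843 genes. Fold changes written as "-fold" are ratios of mean FPKM unless called ratios of fragments. Fragment numbers were recovered as FPKM times exon length and library depth. Of values up to 200 fragments, 97.8% to 98.04% were whole within 0.1, and 0 values above 0 were shared between libraries. For Epas1 the exon length of 5590 bases in M21 gave no whole numbers, and 5309 bases, the only length near it that did, was used. The intervals of these fragment ratios cover counting error only. Those of log2 fold changes come from limma and rest on the spread among libraries.

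The 10 genes and the lists were chosen with earlier results of these data known. Besides the 10 genes and Tnfsf9, the named genes are, from each list, the 5 with the largest change among those that passed and the 3 with the highest level among those that did not. Of these, 1 gene that this rule takes is not reported here. Further genes that carry values were picked after these were seen. Aldoa has 2 identifiers, and the one with the higher level was used. Near-identical copies are BLAST 2.17.0+ alignments of transcripts with at least 95% identity over 80% of the shorter one and 150 bases. No protein sequences were used here. The limma step was tested on simulated data. Alternatives were other pseudocounts and filters, rescaling to TPM, quantile normalization, a replicate block, voom on recovered fragments, and leaving out each library.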

Additional observations from a re-analysis of the deposited data

How the results depend on the processing

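Over 14 alternatives the direction of all 10 genes held, and Hif1a, Egln1, Bnip3, Vegfa and Ankrd37 stayed past the threshold in each one. Epas1 and Egln3 also did in each one that tested them (Epas1 falls under the filter at 5 FPKM). As these 2 genes pass a filter on the mean only through the KO-labelled libraries, no support is drawn from that. The log2 fold change ranged from -1.25 to -1.14 for Hif1a, -2.38 to -1.93 for Vegfa and 5.30 to 9.10 for Egln3. Arnt, Vhl and Egln2 changed sides in 7, 3 and 2 alternatives, as given above. Rescaling to TPM left 1 of the other regulators lower. An alternative chosen after seeing the data left out genes that have a near-identical copy. There 3 of 9 other regulators were higher (33.3%) and 8 of 14 glucose metabolism targets lower (57.1%). Of all genes tested, 30.6% were higher and 30.2% lower. Among genes that did not pass, the sign turned under TPM for Ddit4 (0.038), Jmjd6 (0.038) and Elob (0.074), under quantile normalization for Elob (0.11), and without single libraries for Ddit4 and Elob (ranges -0.1427 to 0.002006 and -0.1251 to 0.04657). Calls were gained by Eno1 under TPM, under quantile normalization (adjusted p = 0.00631, limma) and without KO-labelled replicate 3 (0.028), and by Aldoc under TPM. Gapdh without WT replicate 2 (0.0197), Siah2 without KO-labelled replicate 2 (0.0462) and Elob without KO-labelled replicate 3 (0.0289) also gained one, as lower. The cause was not tested. All 8 ratios to Hif1a kept their direction. The replicate numbers did not pair the libraries (correlations of deviations -0.03, 0.05 and -0.03 for equal numbers, and WT replicate 1 correlated best with KO-labelled replicate 3). With a replicate block 6194 genes were called against 6594, and the 10 genes kept their calls. Depth limits Epas1 in WT, where 3 fragments were counted.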
